A study of Mus musculus with 3 samples.

Results

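MERTK-tagged LT-HSCs were the cells that carried at least 2 tags of an antibody against the receptor tyrosine kinase MERTK, and untagged LT-HSCs were those that carried 0. Both groups were selected on the MERTK count itself, among 3629 cells with at least 10 tags summed over 12 antibodies. Of these, 564 cells were tagged (15.5%, exact binomial 95% interval 14.4 to 16.8%) and 2168 were untagged (59.7%). The remaining 897 cells carried 1 MERTK tag and entered neither group. The question was whether cells with MERTK tags differed from cells with 0 in the tags of the other antibodies, in library depth or in accessible chromatin. Antibody counts of droplets without a cell were not analysed here, so the share of MERTK tags that is background is unknown: 0 tags do not show that a cell lacked MERTK, nor 2 tags that it carried it.

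MERTK belongs with Axl and Tyro3 to the TAM family of receptors. Its ligands, Gas6 and protein S (encoded by Pros1), bridge the receptor to phosphatidylserine on dying cells, and macrophages that carry MERTK engulf those cells in the process called efferocytosis. In bone marrow, MERTK is best known on resident macrophages. In the study, MERTK was a candidate marker of HSC subtypes, chosen with the other antigens from RNA of clones with known lineage output. The study also stained HSCs for its candidates by flow cytometry and reports significant signal for 12 antibodies. Those that stained strongly were mixed with their unconjugated forms to balance the panel, so tag numbers also depend on this titration.

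The cells were long-term haematopoietic stem cells (LT-HSCs) from the bone marrow of wild-type C57BL/6J females aged 24 months, enriched for c-Kit and sorted by flow cytometry. The study's HSC gate took cells negative for lineage markers, CD48 and CD34 and positive for Sca-1, c-Kit and CD150, and its lineage cocktail held antibodies against B220, CD4, CD5, CD8, Gr-1, Mac-1 (CD11b) and Ter119. 1 pool of cells gave 3 libraries (ATAC, gene expression and antibody tags) by DOGMA-seq, which reads open chromatin, RNA and antibody-bound surface protein from the same cell. How many mice these cells came from was not established here. With 1 pool, tagged and untagged cells are 1 sample each, so that no test between them was possible. All intervals below are exact 95% intervals for counting error only. Of 4369 called cells, 3724 had antibody counts. The ATAC library held 43705382 fragments, of which tagged cells contributed 6172676 nuclear fragments and untagged cells 22750284.

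The 12 antibodies came from 2 sources. MERTK, CD68, CD106, CD163, CD183 and CD206 were purified antibodies to which the authors attached the DNA tag in-house, and CD27, CD61, CD201, CD274, CD357 and P2X7R were ready-made TotalSeq-A reagents. This division matters for what follows, so the MERTK tag is shown with the tags of the 5 other in-house antibodies and of the 2 TotalSeq-A antibodies whose counts differed most. Capitals mark bases identical to the MERTK tag at the same position from the 5′ end.
MERTK: gacgaacgtccgcg
CD68: ctttctttcaCGgGa
CD106: cgttcctacCtaCct
CD163: GACGcgCGTtgtCa
CD183: cgtcctaGgaCata
CD206: GgtcgACtaggtCG
P2X7R: tgCttcatTCatgtg
CD201: tAtGAtCtgCCcttg
The MERTK tag had 14 bases, as had those of CD163, CD183 and CD206. Between the MERTK tag and the 11 others there were 6 to 12 mismatches, fewest with CD163.

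MERTK was a sparse signal. The kept cells held 2639 MERTK tags, 2.31% of all tags assigned to an antibody, with a mean of 0.727 tags per cell. There were 315 cells with 2 tags, just inside the threshold, and 897 cells with 1 tag, just outside it. A further 124 cells had 3 tags, 63 had 4, 26 had 5 and 15 had 6, and 17 cells had 8 or more. The counts were spread more widely than a Poisson count of the same mean, which would leave 48.3% of cells at 0 where 59.7% were observed. Their variance was 3.76 times their mean, and 2.29 times without the cell with most tags. That cell held 64 MERTK tags. It also held 25 CD68, 13 CD183, 8 CD106 and 5 CD163 tags, with 0 CD206 tags, and among the TotalSeq-A antibodies 35 CD274 and 5 P2X7R tags but only 1 CD61, 1 CD357, 0 CD27 and 0 CD201 tags. Its ATAC depth of 11150 fragments was within the range of the other cells.

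Tagged and untagged cells had similar median depths, but very deep cells were more frequent among tagged cells. The median was 10316 ATAC fragments per tagged cell (quartiles 8528 to 12380) and 10301 per untagged cell (8392 to 12090). Fragments in peak regions made up a median of 67.5% in tagged and 67.6% in untagged cells, and mononucleosome-length fragments 32.5% and 32.3%. The median of RNA UMIs was 2038 in tagged and 1953 in untagged cells. The means differed more, at 10945 and 10494 fragments and at 2247 and 2069 UMIs. Of the tagged cells 45 (7.98%, 5.88 to 10.5%) were among the 5% of kept cells with most fragments, against 85 untagged cells (3.92%, 3.14 to 4.83%). For UMIs the shares were 9.04% (6.81 to 11.7%) and 3.74% (2.98 to 4.62%). An excess of sites covered by overlapping fragments was found in 57 tagged cells (10.1%, 7.74 to 12.9%) and in 128 untagged cells (5.90%, 4.95 to 6.98%). Such an excess can come from more than 1 nucleus behind a barcode. It was judged against 1 mean for all cells, without regard to depth. Deep cells were therefore more readily flagged, and the flag alone does not show more than 1 nucleus. Because flagged cells were more frequent among tagged cells, the antibody results are also given without them where they change.

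Cells with MERTK tags carried more tags of the other in-house antibodies. Tags of the 5 others summed to a mean of 0.973 per tagged cell (549 tags) and 0.477 per untagged cell (1034 tags), a ratio of 2.04 (1.84 to 2.27). By contrast, the 6 TotalSeq-A antibodies together gave 31.9 tags per tagged and 29.5 per untagged cell, a ratio of 1.08 (1.06 to 1.10). The intervals of these ratios do not overlap, but they treat each tag as independent. Tags were clustered in some cells, so these intervals do not measure the spread between cells. Without the cell with 64 MERTK tags the in-house ratio was 1.86. Without cells with an excess of overlapping fragments it was 2.05, whereas the TotalSeq-A ratio was then 1.02. Leaving out the deepest cells, those in the top 5% for fragments or for antibody tags (73 tagged and 139 untagged cells), gave 1.69 and 0.988. This setting cuts on antibody tags, most of which are TotalSeq-A, and removed 12.9% of tagged and 6.41% of untagged cells. The cut by itself therefore lowers the TotalSeq-A ratio, and the 0.988 cannot show what that ratio would be at equal depth.

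CD68, a lysosomal glycoprotein of macrophages that lies mostly inside the cell, differed most. Its mean was 0.222 tags per tagged cell and 0.0839 per untagged cell (ratio 2.64, 2.08 to 3.33), and 2.12 times without the highest cell. For CD183, the chemokine receptor encoded by Cxcr3, the means were 0.129 and 0.0604 (ratio 2.14, 1.59 to 2.87), and the ratio was 1.76 (1.28 to 2.41) without the highest cell. CD106, the adhesion molecule VCAM-1, had means of 0.550 and 0.292 (1.88, 1.64 to 2.16). Each of these 3 antibodies was also seen in a larger share of tagged cells. CD68 tags were found in 11.3% of tagged cells (8.85 to 14.3%) and 6.83% of untagged cells (5.80 to 7.97%), CD183 tags in 8.69% and 5.12%, and CD106 tags in 31.9% and 22.2%.

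The remaining in-house antibodies bind scavenger and mannose receptors of macrophages and were close to the detection limit. CD163 gave 25 tags in all tagged cells and 51 in all untagged cells (ratio 1.88, 1.12 to 3.10). Of the 25, 5 came from the cell with 64 MERTK tags, and without it the ratio was 1.51 (0.853 to 2.58), an interval that includes 1. CD206, encoded by Mrc1, gave 16 and 37 tags (1.66, 0.863 to 3.06), which also includes 1. Fewer than 3% of cells in either group held a tag of either antibody (2.84% of tagged cells for both).

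**Figure D1:**
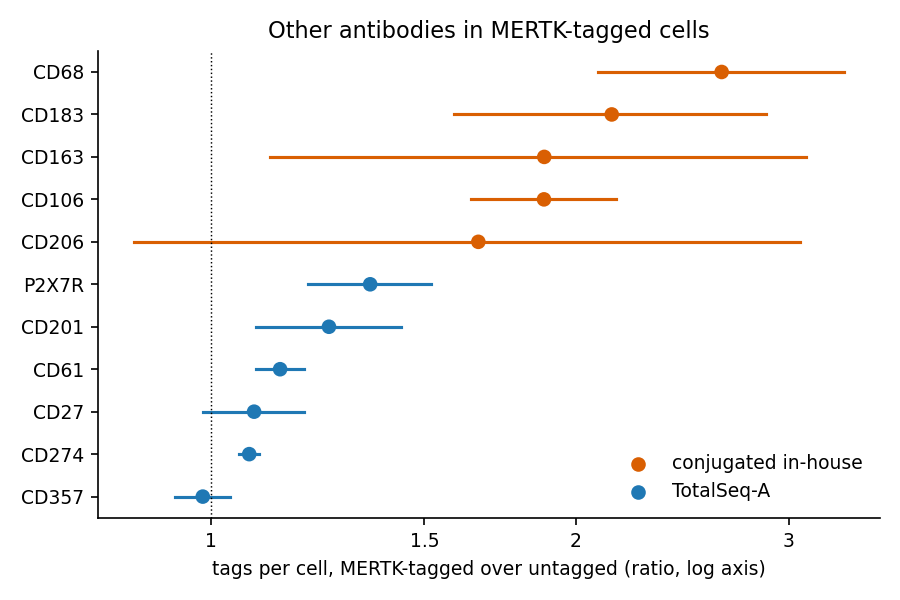
Ratio of mean tags per cell in MERTK-tagged over untagged cells for the 11 other antibodies (log axis). Points are ratios and lines exact 95% intervals for counting error; all 5 in-house antibodies (1.66 to 2.64) lie above all 6 TotalSeq-A antibodies (0.984 to 1.35).

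Of the TotalSeq-A antibodies, P2X7R, an ATP-gated ion channel, had the largest ratio, with 0.691 tags per tagged and 0.511 per untagged cell (1.35, 1.20 to 1.52). CD201, the endothelial protein C receptor of HSCs, had means of 0.489 and 0.391 (1.25, 1.09 to 1.43). CD61, the integrin beta 3 chain of platelets, had means of 4.16 and 3.65 (1.14, 1.09 to 1.19), CD274 of 22.4 and 20.9 (1.07, 1.054 to 1.096) and CD27 of 0.959 and 0.884 (1.08, 0.984 to 1.19). CD357 was the one antibody with a lower mean in tagged cells, at 3.20 against 3.25 (0.984, 0.934 to 1.04). The CD27 and CD357 intervals include 1. Without cells with an excess of overlapping fragments the ratios were lower for all 6 antibodies. They were then 1.27 (1.12 to 1.45) for P2X7R, 1.20 (1.03 to 1.39) for CD201 and 1.10 (1.04 to 1.15) for CD61. CD274 was at 1.01 (0.990 to 1.03) and CD27 at 0.973 (0.875 to 1.08), intervals that include 1, and CD357 at 0.924 (0.873 to 0.978).

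The in-house difference grew with the MERTK count. Cells with 0, 1, 2 and 3 MERTK tags had 0.477 (0.448 to 0.507), 0.643 (0.592 to 0.698), 0.695 (0.606 to 0.794) and 0.823 (0.671 to 0.999) other in-house tags per cell. The 125 cells with 4 or more had 1.82 (1.60 to 2.08), from 228 tags. Of these tags, 25 of CD68, 13 of CD183, 8 of CD106 and 5 of CD163 came from the cell with 64 MERTK tags. The mean of this class without that cell was not computed. The TotalSeq-A sums over the same classes were 29.5, 30.7, 31.4, 31.4 and 33.6 tags per cell. At least 3 other in-house tags were found in 47 tagged cells (8.33%, 6.19 to 10.9%) and 65 untagged cells (3.00%, 2.32 to 3.81%).

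**Figure D2:**
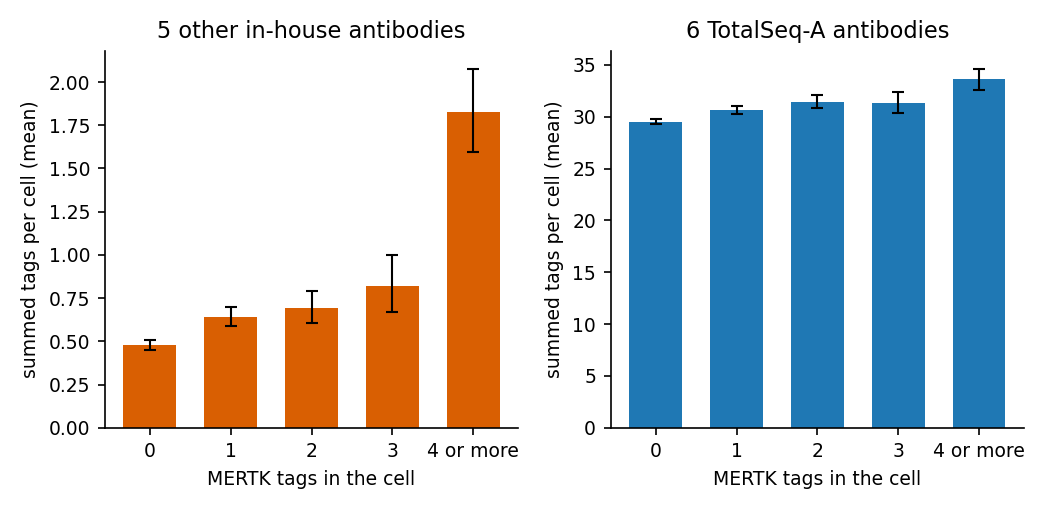
Mean tags per cell, summed over the 5 other in-house antibodies (left) and the 6 TotalSeq-A antibodies (right), in cells with 0, 1, 2, 3 and 4 or more MERTK tags. Bars are means and lines exact 95% Poisson intervals. The left means run from 0.477 to 1.82 and the right means from 29.5 to 33.6, with the cell of 64 MERTK tags in the last class.

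The excess was present at every level of overall staining. When all kept cells were divided into 5 equal parts by their TotalSeq-A tags, the in-house ratio of tagged over untagged cells was 1.63 (1.24 to 2.14) in the cells with fewest such tags, then 1.59, 2.30 and 1.86, and 2.55 (2.08 to 3.11) in those with most. Pooled over these 5 parts it was 2.03. The cell with 64 MERTK tags lay in the part with most TotalSeq-A tags, so the 2.55 and the pooled ratio include its in-house tags. Neither ratio was computed without that cell. The cells were also split by other antibodies at the same thresholds. With CD106, also an in-house antibody, the balance was like that of MERTK: cells with at least 2 CD106 tags carried 2.70 times (2.46 to 2.97) the other in-house tags and 1.09 times the TotalSeq-A tags of cells without CD106. With the TotalSeq-A antibodies it was not. Cells with at least 2 CD27 tags carried 1.03 times (0.955 to 1.10) the in-house tags and 1.19 times (1.17 to 1.21) the other TotalSeq-A tags. For CD201 the corresponding ratios were 1.09 and 1.21. P2X7R lay between, with 1.58 times the in-house tags and 1.19 times the other TotalSeq-A tags. In these splits the in-house sums included MERTK, so the CD106 split in part repeats the pairing of MERTK and CD106 above. The cell with 64 MERTK tags counted as tagged for CD106 (8 tags) and P2X7R (5 tags). It counted as untagged for CD27 and CD201. The ratios of these splits were not computed without that cell. The in-house antibodies of this panel include all those against the macrophage antigens CD68, CD163 and CD206, so that a signal shared by reagents made in the same way and one shared by these antigens cannot be told apart.

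The surface markers with which the study separated platelet-biased (PLT) and multi-lineage (MUL) HSCs were then compared. A raw count above the median over kept cells was taken as high for a marker, and a count at or below it as low. Because many counts are tied, the parts were unequal: only the 22.7% of kept cells with at least 2 CD27 tags were CD27 high. For CD27 this widens the PLT gate and narrows the MUL gate, so the sizes of the 2 gates are not compared. The PLT gate (CD61 and CD274 high, CD357 and CD27 low) held 60 of 564 tagged cells (10.6%, 8.22 to 13.5%) and 201 of 2168 untagged cells (9.27%, 8.08 to 10.6%). The MUL gate, with the opposite pattern, held 6 tagged cells (1.06%, 0.391 to 2.30%) and 37 untagged cells (1.71%, 1.20 to 2.34%). Both pairs of intervals overlap.

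The gene that encodes the antigen differed little in accessibility between the groups. Over Mertk and 2 kb upstream (chr2:128698956-128802894 of mm10, plus strand, for the gene), 440 fragments came from tagged and 1521 from untagged cells. Levels are given as fragments per 1000000 nuclear fragments of a group (FPM), and were 71.3 FPM in tagged and 66.9 in untagged cells, and 73.9 in cells with 1 tag. The log2 ratio of tagged over untagged cells was 0.09 (-0.06 to 0.25). With the cells of 1 tag counted as tagged it was 0.125 (0.013 to 0.24), an interval that excludes 0, and without cells with any other in-house tag it was 0.02 (-0.20 to 0.23). Cells with 2 tags (71.6 FPM) and with 3 or more tags (70.9 FPM) did not differ beyond their counting error. Within 1 kb of the gene start, 136 and 519 fragments gave a log2 ratio of -0.05 (-0.33 to 0.22). The promoter was open in both groups. Its sequence (RefSeq, GRCm38.p6, chr2:128698665-128698964, plus strand) is shown because it is the control region of the gene behind the tag, with CG dinucleotides in capitals.
Mertk promoter: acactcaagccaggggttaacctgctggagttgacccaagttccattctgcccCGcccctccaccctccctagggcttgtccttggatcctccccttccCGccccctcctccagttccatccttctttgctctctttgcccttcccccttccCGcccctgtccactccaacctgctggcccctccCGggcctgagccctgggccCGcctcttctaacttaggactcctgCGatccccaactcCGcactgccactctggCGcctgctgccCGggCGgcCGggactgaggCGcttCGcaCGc
It held 14 CG dinucleotides, against a median of 7.0 over 32851 promoters of the same length.

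Other TAM genes and ligands were within 1.5-fold. Axl gave a log2 ratio of 0.04 (-0.15 to 0.23) and Tyro3 of 0.16 (-0.12 to 0.43). Both ligand genes had ratios below 0. Gas6 had 26.7 FPM in tagged and 32.9 in untagged cells (log2 ratio -0.30, -0.55 to -0.05), with 31.9 in cells with 1 tag. Pros1 had 20.7 and 23.9 (-0.20, -0.49 to 0.08), an interval that includes 0.

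Of 44 genes of the TAM and efferocytosis list, 42 reached 200 fragments over both groups. Among these 26 had a log2 ratio above 0 and 16 below, and 0 passed 1.5-fold in either direction, where 0.0256% of all 15639 genes tested were 1.5-fold or more higher and 0.0575% lower. The list median was 0.03, and the median over all genes was 0.01. Of all genes 52.7% had a ratio above 0, against which the counts above 0 in this and the other lists are to be read. The highest measured member was Anxa1, a phospholipid-binding protein that guides clearance of dying cells, at 0.25 (-0.17 to 0.64). Of the 2 members below 200 fragments, Timd4 was at 0.66 (0.10 to 1.18) and Havcr1 at -0.07 (-1.17 to 0.82). Both were named after their values were seen. Gas6 was the lowest and the one measured member of 42 whose interval excluded 0, where the intervals of 2.99% of all genes lay below 0 and of 4.07% above. It was followed by Lgals3 (-0.24, -0.63 to 0.11), Pros1 and Mfge8 (-0.16, -0.39 to 0.06), whereas Tub (0.04) and Tulp1 (0.04), which like them encode molecules that bridge to dying cells, lay above 0. The engulfment genes Elmo1 (-0.02), Dock2 (0.03) and Rac1 (0.02) and the cholesterol exporter Abca1 (-0.01) lay close to 0.

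Macrophage genes were examined because MERTK is a macrophage antigen, and of the list's products Mac-1, encoded by Itgam, was the one that the lineage cocktail of the gate was directed against. Of 28 list genes, 13 reached 200 fragments, 7 of them above 0 and 6 below, with a median of 0.04. The summed fragments of all 28 genes gave a log2 ratio of 0.04 (-0.03 to 0.10). Defining macrophage genes were nearly closed in both groups. Adgre1, which encodes F4/80, had 2.11 FPM in tagged and 3.52 in untagged cells (13 and 80 fragments). The complement gene C1qa gave 8 and 65 fragments, and Vsig4 gave 7 and 65. Spic, the transcription factor of red pulp macrophages, gave 20 and 94. Of the 13 measured genes, 2 had intervals above 0 and 0 had intervals below 0, beside the 4.07% and 2.99% of all genes. Itgam, which encodes CD11b, had 25.8 FPM in tagged and 20.04 in untagged cells (log2 ratio 0.36, 0.09 to 0.63), and Csf1r, the receptor for macrophage colony-stimulating factor, 53.0 and 45.2 (0.23, 0.05 to 0.41). Csf1r was also at 55.9 FPM in cells with 1 tag, but Itgam was at 19.5 there. Among the 15 list genes below 200 fragments, Timd4 and Trem2 had intervals above 0 and Vsig4, C1qa and Vcam1 intervals below 0, of which all but Vcam1 were named after their values were seen. Over all 5395 protein-coding genes with at least 1 but under 200 fragments the shares were 1.85% above and 1.20% below.

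The genes of the 12 antigens were set beside the tags. Among the 5 other in-house antibodies, Cd68 had a log2 ratio of 0.25 (-0.10 to 0.58), Cd163 of 0.15 (-0.20 to 0.49), Cxcr3 of 0.13 (-0.20 to 0.44) and Mrc1 of -0.15 (-0.40 to 0.09). Vcam1, which encodes CD106, was lower in tagged cells, with 22 and 131 fragments (-0.67, -1.42 to -0.03), whereas CD106 tags were 1.88 times as frequent on them. P2rx7 (-0.14, -0.29 to 0.00) and Cd27 (-0.20, -0.53 to 0.11) were below 0, and Itgb3 (0.02), Cd274 (0.00), Procr (0.13) and Tnfrsf18 (-0.12) had intervals that include 0. Vcam1 and Adgre1 did not reach 200 fragments.

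HSC genes differed little in accessibility between tagged and untagged cells. In the stem cell list (29 of 30 genes with 200 fragments), 15 ratios were above 0 and 14 below, with a median of 0.02. The regulators Mecom (-0.04, -0.10 to 0.02), Hlf (-0.03), Meis1 (-0.03) and Runx1 (0.02) lay near 0. The highest was Slamf1, which encodes the sorting antigen CD150, at 0.25 (0.03 to 0.46). All 24 genes of the old stem cell list were measured, with 16 above 0 and a median of 0.02. The clone PLT list, genes higher in RNA of platelet-restricted clones of the study, had 61 measured members, 28 above 0 and 33 below (median -0.01). The clone MUL list had 57, with 28 above 0 and 29 below (median 0.00). Among measured members, highest and lowest in the clone PLT list were Phf11d (0.43, -0.04 to 0.86) and the tight-junction gene Ocln (-0.34, -0.56 to -0.13). In the clone MUL list they were Gpr65 (0.32, -0.01 to 0.62) and Cyp11a1 (-0.40, -0.77 to -0.07). No member of any list with 200 fragments passed 1.5-fold.

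**Figure D3:**
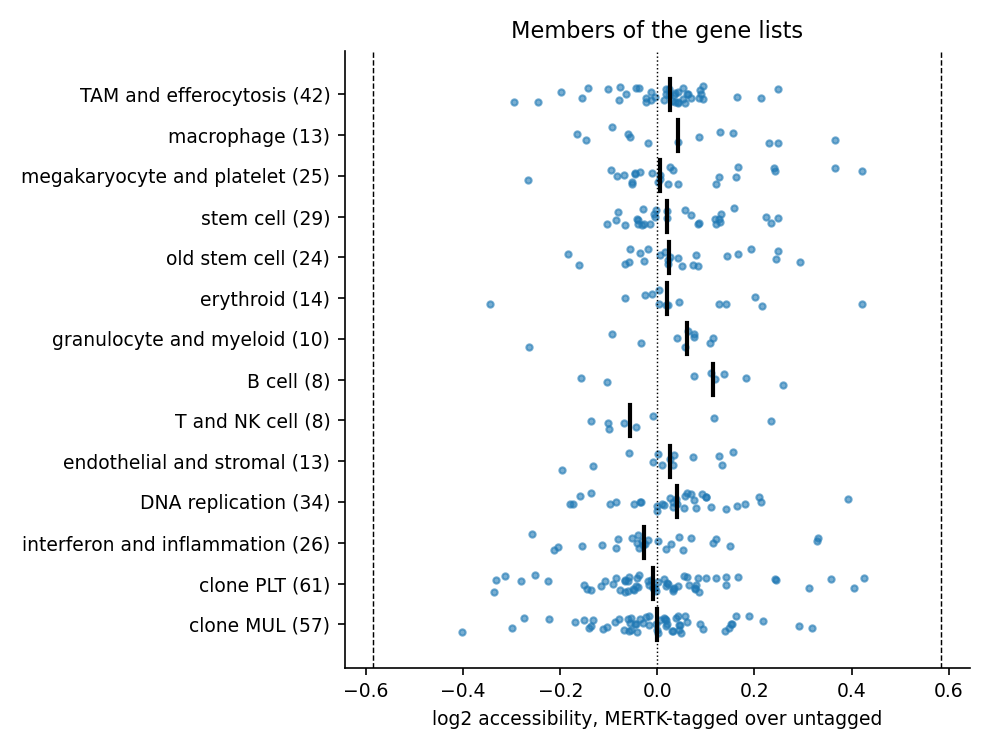
Log2 ratio of accessibility in MERTK-tagged over untagged cells for each list member with at least 200 fragments; the number of such members is in parentheses. Points are genes, thick marks list medians and dashed lines 1.5-fold; the medians lie between -0.06 and 0.11 and all points lie inside the dashed lines.

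The median of the megakaryocyte and platelet list was 0.01 (25 genes, 15 above 0 and 10 below). Vwf, the platelet adhesion gene that marks platelet-biased HSCs, had 222.6 FPM in tagged and 216.1 in untagged cells (log2 ratio 0.04, -0.04 to 0.13), and Itga2b, Pf4 and Fli1 lay at 0.03, -0.05 and 0.01. In the erythroid list, 10 of 14 measured genes were above 0 (median 0.02). The other medians were 0.06 for granulocyte and myeloid genes (10 measured), 0.11 for B cell genes (8), -0.06 for T and NK cell genes (8), 0.03 for endothelial and stromal genes (13), 0.04 for DNA replication genes (34, of which 23 above 0) and -0.03 for interferon and inflammation genes (26). The endotoxin receptor gene Tlr4 was the highest inflammation gene at 0.33 (0.08 to 0.58).

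Across the genome, 4 of 15639 genes were at least 1.5-fold more accessible in tagged cells (0.0256%) and 9 were less so (0.0575%). For scale, splitting the same cells by P2X7R gave 0.0766% of genes higher and 0.230% lower, and splitting them by CD27 gave 0.00647% and 0.0259%. The groups differ in size between these splits, so the shares are not directly comparable. The 4 higher genes were Tmem136, Nnat, Hist2h2aa2 and Prss50, of which Hist2h2aa2 and Prss50 were named after their values were seen. Tmem136 had 71 fragments in tagged and 160 in untagged cells (log2 ratio 0.72, 0.29 to 1.12), at 7.03, 7.79 and 11.5 FPM in cells with 0, 1 and at least 2 tags. Nnat, an imprinted gene, had 73 and 167 fragments (0.69, 0.27 to 1.09). Hist2h2aa2 and other clustered histone genes have near-identical copies and may share fragments with them, and a fragment was counted for each gene it overlapped. All 4 lay near the minimum of 200 fragments, where the counting interval is wide.

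The 10 genes with the highest lower bound continued with the histone gene Hist2h3c1 (0.57), Parpbp (0.55), the cyclin G kinase gene Gak (0.39, 0.21 to 0.57), the sugar transporter gene Slc50a1 (0.54), Pcdh19 (0.49), the red cell peroxiredoxin gene Prdx2 (0.42), Zfp248 (0.43) and Gata1 (0.42). At the other end, Armc4 had 29 and 203 fragments (-0.90, -1.54 to -0.36), Cox4i2, a lung subunit of cytochrome oxidase, 53 and 327 (-0.73, -1.19 to -0.32) and the mitochondrial transcription gene Tefm 35 and 229 (-0.81, -1.39 to -0.31). They were followed by Pcbp4 (-0.65), Tsku (-0.63), the bile salt exporter Abcb11 (-0.69), Gsc2 (-0.67), Slc6a21 (-0.57), Tll1 (-0.47) and E2f6 (-0.46). Neither set formed part of a list other than Gata1. These genes were selected as the extremes of 15639, so their ratios describe the selection as well as the cells.

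**Figure D4:**
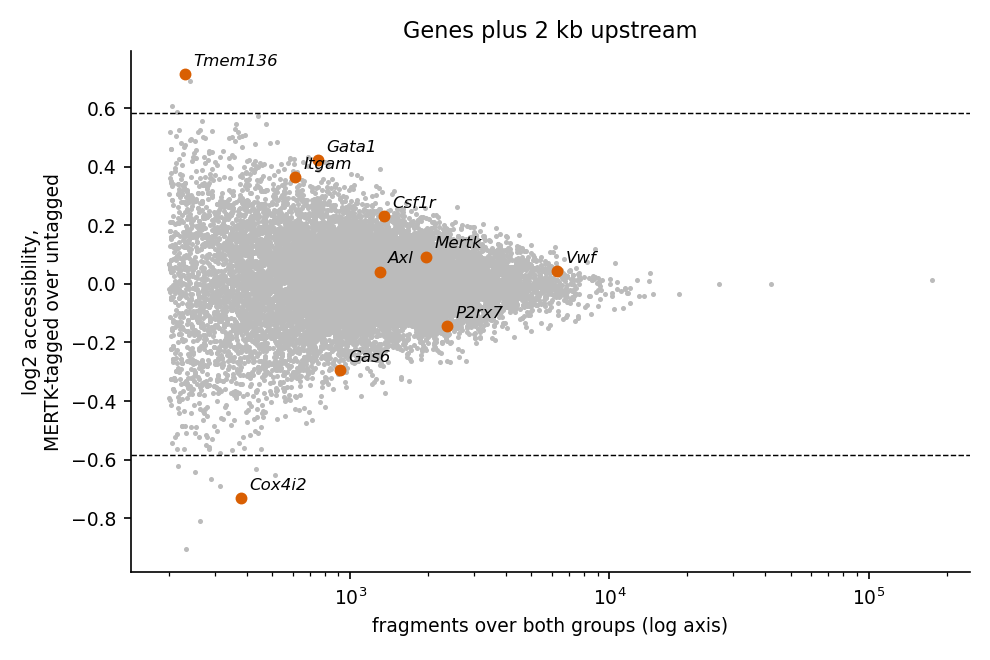
Log2 ratio of accessibility in MERTK-tagged over untagged cells (vertical) against fragments over both groups (horizontal, log axis) for 15639 protein-coding genes with 2 kb upstream. Each point is a gene, orange points are named genes, and dashed lines mark 1.5-fold; the spread narrows with depth and Mertk (0.09) and Vwf (0.04) lie near 0.

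Gata1, the master regulator of megakaryocyte and erythroid genes, was the one lineage regulator among these extremes. Over the gene and 2 kb upstream (chrX:7959260-7978071 for the gene, minus strand), 200 fragments came from tagged and 551 from untagged cells (log2 ratio 0.42, 0.18 to 0.66). Over the alternatives the ratio ran from 0.18, both with at least 50 tags (-0.65 to 0.96) and with each cell thinned to 6000 fragments (-0.20 to 0.54), to 0.59 at 3 or more MERTK tags (0.26 to 0.89), and without cells with any other in-house tag it was 0.29 (-0.06 to 0.61). Levels were 24.2 FPM in untagged cells, 29.2 in cells with 1 tag, 29.2 in cells with 2 tags and 36.4 in cells with 3 or more. A single 1 kb window (chrX:7971001-7972000) held more of these fragments than any other, and was one of the 5 distal windows with the highest lower bound. It held 74 fragments of tagged and 171 of untagged cells (0.68, 0.26 to 1.07). The levels were 7.52 FPM in untagged cells, 9.45 with 1 tag, 10.6 with 2 tags and 13.7 with 3 or more. A smaller peak at 9 to 10 kb from the annotated first start had 5.35 and 4.31 FPM in tagged and untagged cells, with overlapping intervals, and the first start itself gave 5 and 21 fragments within 1 kb. The window lies in an intron of the longest Gata1 transcript and 3.50 kb upstream of the start of a shorter one, where an upstream enhancer of Gata1 that carries a GATA motif is known from mouse. The 300 bases with most transposase insertions in that window (403 of 650) are shown on the Gata1 strand (GRCm38.p6, chrX:7971265-7971564), with matches to AGATAA on either strand in capitals.
Gata1 window: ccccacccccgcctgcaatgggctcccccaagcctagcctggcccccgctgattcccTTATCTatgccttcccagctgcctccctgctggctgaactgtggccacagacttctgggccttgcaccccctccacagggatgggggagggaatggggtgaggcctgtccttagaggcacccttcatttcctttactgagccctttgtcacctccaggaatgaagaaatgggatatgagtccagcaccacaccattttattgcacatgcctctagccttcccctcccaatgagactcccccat
There was 1 match. A match is a description of the letters and not of binding. The window was selected as an extreme of 6550 windows, and the alternatives drew largely on the same cells. A ratio that stays above 0 is therefore no independent support. The interval of cells with 1 tag (7.61 to 11.6 FPM) overlapped that of untagged cells (6.43 to 8.73 FPM). The log2 ratio of the window, 0.68, was above 0 at every alternative tried. It was lowest, with intervals that include 0, after thinning to 6000 fragments (0.36, -0.33 to 0.98), without the deepest cells as defined above (0.365, -0.15 to 0.83) and without cells with any other in-house tag (0.40, -0.21 to 0.95). It was highest in cells with at least 50 tags (1.53, 0.025 to 3.31).

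**Figure D5:**
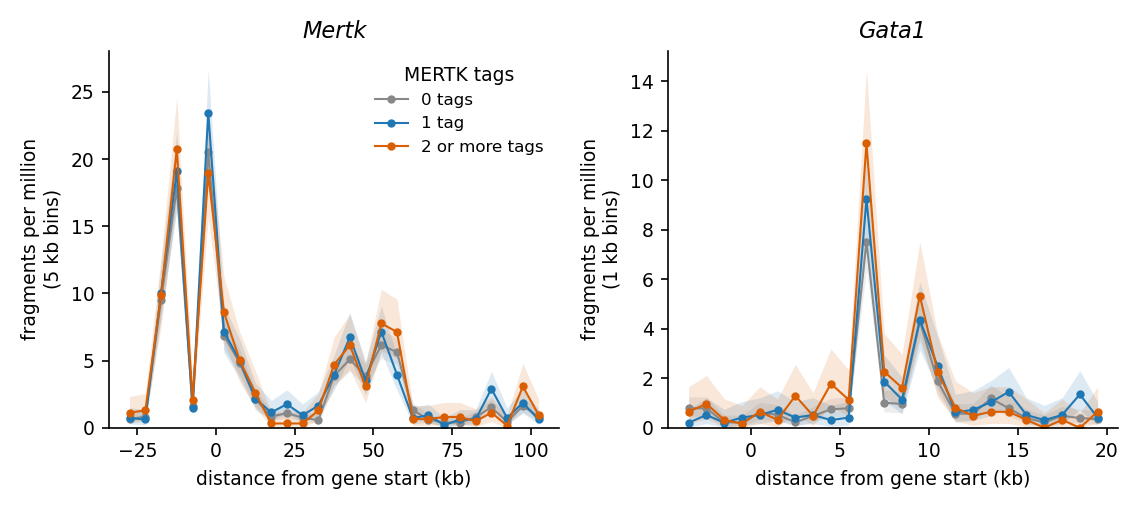
Fragments per 1000000 nuclear fragments (FPM) by distance from the gene start, for Mertk (5 kb bins) and Gata1 (1 kb bins), in cells with 0, 1 and 2 or more MERTK tags. Lines are levels and shaded bands exact 95% Poisson intervals; the groups overlap along Mertk, and at the Gata1 peak the levels are 7.52, 9.24 and 11.5 in order of MERTK tags.

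Promoters and distal windows were read in the same way. Of 12200 promoters (1 kb each side of the gene start), 10 were 1.5-fold or more higher (0.0820%) and 19 lower (0.156%). The 5 highest by lower bound were those of Pcdh9 (0.79, 0.34 to 1.22), Slc50a1 (0.63), Ryr2 (0.69), Bex3 (0.70) and the histone gene Hist2h2aa2 (0.64). The 5 lowest by upper bound were those of Pfas (-0.62), Dnah9 (-0.70), Zfp280c (-0.72), Mrm2 (-0.60) and Tshz3 (-0.57). Of 6550 distal 1 kb windows more than 2 kb from a gene start, 20 were higher (0.305%) and 83 lower (1.27%). The lower calls outnumbered the higher ones. The distribution of all window ratios was also wider below, with a median of -0.01 and central 95% limits of -0.49 and 0.40. For genes, the P2X7R split also gave more lower than higher calls (36 and 12), and so did the CD27 split (4 and 1). Tagged cells contributed fewer nuclear fragments than untagged cells (6172676 and 22750284). Whether this imbalance alone gives more lower calls was not tested, so no loss of accessibility is read from these calls.

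Besides the Gata1 window, the highest windows lay in an intron of Exoc6 (chr19:37602001-37603000, 0.73, 0.32 to 1.13), in Lag3 over an annotated exon (chr6:124904001-124905000, 0.68), between genes 324.9 kb from Edem1 (chr6:109153001-109154000, 0.61) and in an intron of Mtor (chr4:148509001-148510000, 0.67). The Mtor window was at 16.2 FPM in cells with 2 tags and 5.76 in cells with 3 or more, on opposite sides of the 7.25 of untagged cells. The lowest windows lay between genes near Slc1a3 (chr15:8629001-8630000, -0.95, -1.56 to -0.43), in introns of Bcr (chr10:75170001-75171000, -0.81), Bcl6 (chr16:23984001-23985000, -0.80) and Fblim1 (chr4:141587001-141588000, -0.84) and in Extl1 over an annotated exon (chr4:134362001-134363000, -0.78).

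Short motifs of blood cell transcription factors were counted in the distal windows. The GATA motif AGATAA was present, on either strand, in 39.3% of the 6550 windows, in 8 of the 20 higher windows (40.0%) and in 27 of the 83 lower ones (32.5%). Windows with the motif had a median log2 ratio of 0.00 and windows without it of -0.01. For the RUNX motif TGTGGTT the shares were 28.1% of all windows, 40.0% of the higher and 33.7% of the lower ones. The ETS motif AGGAAGT was in 34.2% of all windows, in 6 of the 20 higher and in 33.7% of the lower ones. The corresponding shares were, for the AP-1 motif TGANTCA 31.4%, 35.0% and 27.7%, and for the TAL1 motif CAGATG 55.1%, 40.0% and 59.0%. With 20 higher windows these shares are coarse, and the motifs were chosen after the window ratios had been seen.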

How the data were processed

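Per the labels, cells from 1 pool were processed with Cell Ranger ARC 2.0.2 on mm10 by the authors, and antibody tags were counted with CITE-seq-Count (the sources used here give no version for it). The values the authors deposited are raw counts with no normalization: fragments per barcode, per-barcode read, UMI and gene totals, and antibody tags per cell. The deposited antibody list describes CD106 as an antibody against CD68, so antibodies were taken by identifier. Tags that matched no antibody were left out of all sums.

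Fragments were counted with Python 3.11.15 (numpy 2.4.6, scipy 1.17.1) over GENCODE M21 protein-coding genes with 2 kb upstream, promoters (1 kb each side of the start) and 1 kb distal windows. Each region was scaled by the nuclear fragments of the group, with 0.5 added to each count for log2 ratios. Regions needed 200 fragments over both groups, and called means 1.5-fold. Intervals were exact Poisson, exact binomial (Clopper-Pearson) or exact conditional binomial. Sequences were read from RefSeq GRCm38.p6 with samtools 1.23.1. The scripts were tested on simulated data. No doublets were removed. Of the tagged cells, 7 had fewer than 10 tags without MERTK, and the untagged cells had 0 such cells.

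The members, gene lists and comparisons were chosen with earlier results of these data known. Named were Mertk and the other antigen genes, the 10 genes with the highest lower and 10 with the lowest upper bound (5 each for promoters and windows), the highest and lowest member of each list, and Axl, Tyro3, Gas6, Pros1, Vwf, Gata1, Csf1r and Adgre1; genes beyond these illustrate a list. Older symbols were matched through RefSeq synonyms (3 genes), and the clone lists leave out genes of an antigen. Alternatives changed the tag threshold, the tag and fragment minimum, the cells kept, the scaling, the region and the depth. Some measured genes are not reported here.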

Additional observations from a re-analysis of the deposited data

Results flagged for a closer look

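Antibody reads that matched none of the 12 tags were outside every comparison above, and they were well above 0. They numbered 15768 in the kept cells, 12.1% of all tags. MERTK-tagged cells held a mean of 4.87 such tags and untagged cells 4.21, a ratio of 1.15 (exact 95% interval 1.11 to 1.21, counting error only). Without cells with an excess of overlapping fragments the ratio was 1.10. What these reads are was not tested.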

How the results depend on the processing

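The in-house ratio stayed above 1 at every setting tried. Other in-house tags per tagged over untagged cell were 2.04, and became 2.78 with tagged cells at 3 or more MERTK tags, 1.62 at 1 or more and 2.69 in cells with at least 50 tags. The ratio was 1.69 without the deepest cells, those in the top 5% for fragments or for antibody tags. It was 1.498 without cells with a CD68, CD163 or CD206 tag, a setting that leaves only CD106 and CD183 tags in the sum. Settings with a tag minimum or without the deepest cells select on the tags that these ratios count. The TotalSeq-A ratio (1.08) was 1.10 and 1.054 with the thresholds of 3 and 1 tags, 0.9999 with at least 20 tags, 1.02 without cells with an excess of overlapping fragments, 0.988 without the deepest cells and 1.02 without cells with any other in-house tag. All other antibody tags (1.09, of which TotalSeq-A is the larger share) followed at 1.13, 1.06, 1.02, 1.035, 0.999 and 1.02 in the same order, and 1.08 without cells with a CD68, CD163 or CD206 tag. Leaving out cells with any other in-house tag, or the cell with most MERTK tags, and both of these tag ratios were chosen after the data had been seen.

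Counts past 1.5-fold varied, and so did the number of regions tested (4002 to 16589 genes, 878 to 13624 promoters and 5 to 20016 distal windows), so they are not directly comparable between settings. Percentages in parentheses are shares of the regions tested. For genes (13, 0.0831%) they were 116 (0.752%) at 3 or more tags (249 tagged cells) and 2 (0.0124%) at 1 or more (Ankrd66 and Pon1, named after their values were seen). They were 24 (0.158%) with at least 20 tags, 31 (0.201%) without cells with a CD68, CD163 or CD206 tag, 26 (0.169%) without cells with an excess of overlapping fragments and 26 (0.169%) without the deepest cells. Thinning to 6000 fragments gave 43 (0.303%), and leaving out cells with any other in-house tag 51 (0.347%). A minimum of 100 fragments gave 76 (0.458%), and a minimum of 500 gave 1 (Pcbp4, 0.00761%). For promoters (29, 0.238%) they were 172 (1.46%) at 3 or more tags, 3 (0.0232%) at 1 or more (Dhtkd1, Bfsp1 and Aldh1a3) and 4 (0.456%) with at least 50 tags (Fzd7, Klf16, Kdm4a and Get4). They were 71 (0.668%) without other in-house tags, and 114 (0.837%) and 0 at minimums of 100 and 500 fragments. For distal windows (103, 1.57%) they were 273 (5.25%) at 3 or more tags, 28 (0.258%) at 1 or more, 61 (1.37%) with at least 20 tags and 1 with at least 50 tags (chr15:85634001-85635000, of 5 tested). They were 22 of 1867 (1.18%) after thinning, 48 (1.77%) without other in-house tags, and 1085 (5.42%) and 0 at the 2 minimums.

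Medians and Mertk stayed within 1.5-fold. With at least 50 tags (81 tagged cells) the Mertk log2 ratio was 0.41 (-0.00 to 0.81), the TAM and efferocytosis median 0.0440, the clone PLT median -0.0680, the clone MUL median -0.0594 and the ratio of median fragments per cell 1.13. The clone MUL median was 0.0310 within 1 kb of the start, and the macrophage median -0.105 at 3 or more tags. Signs turned for Adgre1 (0.0699 without other in-house tags), Vcam1 (0.16) and the Mrm2 promoter (0.23) with at least 50 tags, the window chr6:109153001-109154000 (-0.0712, same setting) and the Mtor window (-0.29 at 3 or more tags). The cause of these changes was not tested. Near 200 fragments the counting intervals of single genes are wide, and with 1 pool no spread between mice can be given. No paired analysis was possible because the libraries hold 1 pool and no comparison rests on replicates.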
